A study of Mus musculus with 4 samples.

Results

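The wide RIF1-associated domains were broad stretches of the mouse genome listed as bound by RIF1 in activated B cells. They were selected on width alone, as the intervals of 50 kb or more on chromosomes 1 to 19. This rule took 285 of the 16332 intervals in the list. No interval lay near the threshold, since the widest interval below it was 14.83 kb and the next 13.23 kb, whereas the narrowest above it were 90, 140.074 and 160 kb. Width chose the members, so widths are described here without a test.

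RIF1 was mapped by chromatin immunoprecipitation and sequencing (ChIP-seq) in primary splenic B cells from mice. The cells had been in culture for 72 h with LPS, a bacterial cell wall product, at 5 µg/ml and with the cytokine IL-4 at 5 ng/ml, in both groups alike. Rif1FH cells (2 samples) came from Rif1FH/FH mice, whose RIF1 carries FLAG and HA tags at its N-terminus, and Rif1WT cells (2 samples) carried untagged RIF1 and served as the control for the anti-HA antibody. The list gives intervals shared by the Rif1FH replicates, with positions but no signal, score or value for either sample, and no Rif1WT or depth value stands beside it. The ages of the mice were not given in the labels. The identity of the cells could not be checked against marker expression in a list of positions, and no value below has a replicate error.

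RIF1 is a large chromatin protein that sets the order in which the genome replicates. It brings protein phosphatase 1 to chromatin, where the phosphatase counteracts the kinases that start replication origins. In B cells RIF1 also protects DNA ends at double-strand breaks, which is needed when activated cells exchange the constant region of their antibody heavy chain.

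Sequences from the domains are shown first, to make the base composition and promoter values below concrete. All are from NCBIM37, the reference of build mm9, read 5′ to 3′ along the strand named, and none overlaps an annotated exon. The first 2 are the 250 bases before the annotated 5′ ends of Bach2 and Spib, transcription factors of the B cell lineage. They had the highest and the lowest CpG ratio among B cell genes in domains, counting only genes whose 250 bases overlap no annotated exon. The CpG ratio is the number of CG dinucleotides over the number the C and G content would give. Capitals mark CG.
Bach2, chr4:32325529-32325778, plus strand: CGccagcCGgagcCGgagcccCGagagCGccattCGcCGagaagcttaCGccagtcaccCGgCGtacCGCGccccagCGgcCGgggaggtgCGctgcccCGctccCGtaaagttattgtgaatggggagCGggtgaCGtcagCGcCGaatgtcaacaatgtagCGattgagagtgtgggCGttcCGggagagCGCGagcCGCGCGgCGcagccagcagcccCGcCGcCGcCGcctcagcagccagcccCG
Spib, chr7:51787442-51787691, minus strand: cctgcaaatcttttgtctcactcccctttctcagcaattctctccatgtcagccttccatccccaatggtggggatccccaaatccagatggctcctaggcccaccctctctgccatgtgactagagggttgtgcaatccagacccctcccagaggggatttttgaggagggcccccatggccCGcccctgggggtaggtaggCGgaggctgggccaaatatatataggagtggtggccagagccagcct
The Bach2 promoter held 35 CG dinucleotides at a GC content of 71.2% (CpG ratio 1.1), and the Spib promoter 2 at 58.0% (CpG ratio 0.0959). Both lay in domains, so both kinds of promoter occurred there. The next promoter is that of the H2B histone gene Hist1h2bc, chosen among H2B promoters in domains because it held all 3 motifs marked below. The whole stretch lies between its 5′ end and that of the divergent histone gene Hist1h2ac on the minus strand (chr13:23773336-23775817), so that it precedes both genes. Capitals mark CCAAT, the octamer motif ATTTGCAT and the TATAAA motif, each sought on either strand. The match to the last of these was on the minus strand, near the 5′ end of Hist1h2ac.
Hist1h2bc, chr13:23775818-23776067, plus strand: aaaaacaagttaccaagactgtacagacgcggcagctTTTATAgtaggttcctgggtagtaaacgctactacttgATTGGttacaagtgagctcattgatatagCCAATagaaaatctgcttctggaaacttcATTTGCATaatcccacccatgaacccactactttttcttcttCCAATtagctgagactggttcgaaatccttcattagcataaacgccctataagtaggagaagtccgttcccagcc

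Further stretches show what a G-quadruplex motif looked like in the domains where it was most dense. This motif is 4 runs of 3 or more guanines separated by loops of 1 to 7 bases, sought on both strands, and describes sequence that can fold into a 4-stranded structure in the test tube. Each is 120 bases that start at a motif and lie outside annotated exons. Stretches with at least 40 distinct 4-base words were preferred, and among these none in the same domain held more motif starts. Capitals mark GGG and CCC.
Domain of 90 kb with 844.4 motifs per Mb, chr6:47603850-47603969, intergenic: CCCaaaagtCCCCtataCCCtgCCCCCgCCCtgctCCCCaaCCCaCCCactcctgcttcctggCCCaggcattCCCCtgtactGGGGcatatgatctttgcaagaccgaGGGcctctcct
Domain of 344 kb with 534.9 motifs per Mb, chr3:89167667-89167786, intron of Dcst1: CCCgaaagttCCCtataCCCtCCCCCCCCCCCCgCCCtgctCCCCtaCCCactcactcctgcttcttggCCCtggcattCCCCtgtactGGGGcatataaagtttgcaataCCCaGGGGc
Domain of 466 kb with 532.2 motifs per Mb, chr11:118854717-118854836, intergenic: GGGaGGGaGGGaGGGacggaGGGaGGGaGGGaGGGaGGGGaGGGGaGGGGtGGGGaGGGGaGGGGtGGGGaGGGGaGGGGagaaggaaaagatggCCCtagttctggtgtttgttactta
The first of these lay in the narrowest domain and the second in a gene-dense domain of chromosome 3. They shared an unbroken run of 25 bases (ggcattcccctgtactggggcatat), which occurred 452 times in domains and 10500 times on the remaining autosomes. The domains thus held 4.13% of the copies, beside 9.263% of autosomal sequence without undetermined bases. Of 68109 motif starts in domains, 663 (0.973%) lay within 200 bp of this run, against 12 of 76 in the narrowest domain.

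Together the domains covered 221.8 Mb, or 9.263% of the 2393.7 Mb of autosomal sequence without undetermined bases (N). Their median width was 580 kb, with quartiles of 440 and 810 kb and a maximum of 4842 kb. Most of the length lay in the wider members. The 52 domains of 1 Mb or more made up 18.2% of the domains and 42.5% of the covered length, and the widest 71 held 50% of it. At the other end, 8 domains were narrower than 250 kb and covered 1.476 Mb. A further 4 wide intervals lay on Y and 0 on X, and these were not members.

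Nearly every edge fell on a fixed grid. Of 570 edges, 221 were multiples of 18 kb only, 287 were multiples of 20 kb only, 60 were multiples of both and 2 were neither. Both edges lay on the 18 kb grid in 85 domains, in 3 of which both also lay on the 20 kb grid. In a further 116 domains both edges lay on the 20 kb grid, in 82 there was an edge on each, and in 2 an edge lay off both grids. Among 32086 edges of intervals under 50 kb, called peaks here, 2 lay on either grid. Edges of domains are therefore known no more finely than such a step, and their error was not measured. The step size used in calling was not given in the sources used here. A domain at the end of chromosome 4 ran 9880 bp past the reference.

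**Figure D1:**
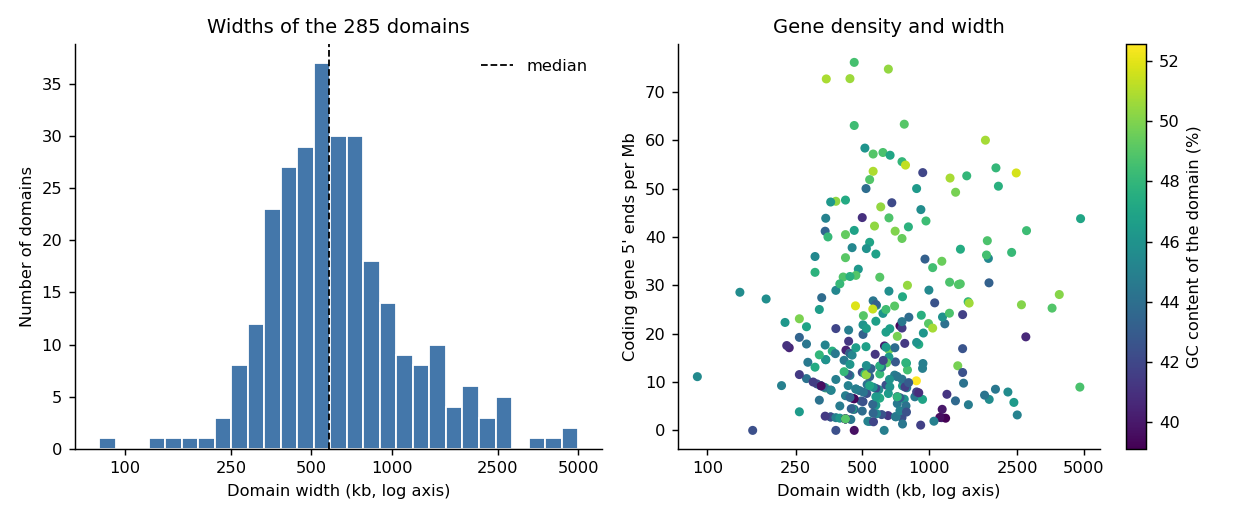
Left, number of domains by width in kb on a log axis, with the median of 580 kb as a dashed line. Right, each of the 285 domains as a point, with its width in kb (log axis), its coding gene 5′ ends per Mb and, as colour, its GC content in percent. The densest domain, at 76.09 genes per Mb, is 460 kb wide, and the widest, at 4842 kb, has 43.78 genes per Mb.

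Domains were found on all 19 autosomes, but unevenly. Chromosome 10 had the largest share of its sequence in domains (15.0%, 20 domains), followed by chromosomes 13 (14.8%), 17 (14.5%) and 7 (13.9%). Chromosome 18 had the smallest share (3.2%, 5 domains), and chromosomes 6, 16 and 1 lay between 5.39 and 5.59%. Gene-rich chromosomes did not always lead. Chromosome 19, with 12.5 coding genes per Mb, had 8.72% of its sequence in domains, and chromosome 13, with 7.44, had 14.8%. Along the chromosomes, the 10% farthest from the centromere had 19.4% of its sequence in domains, against 4.52 to 11.2% for the other stretches of that length. Coding genes in that distal stretch stood at 10.7 per Mb, close to the 11 per Mb of the stretch before it, where domains took 11.2%.

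**Figure D2:**
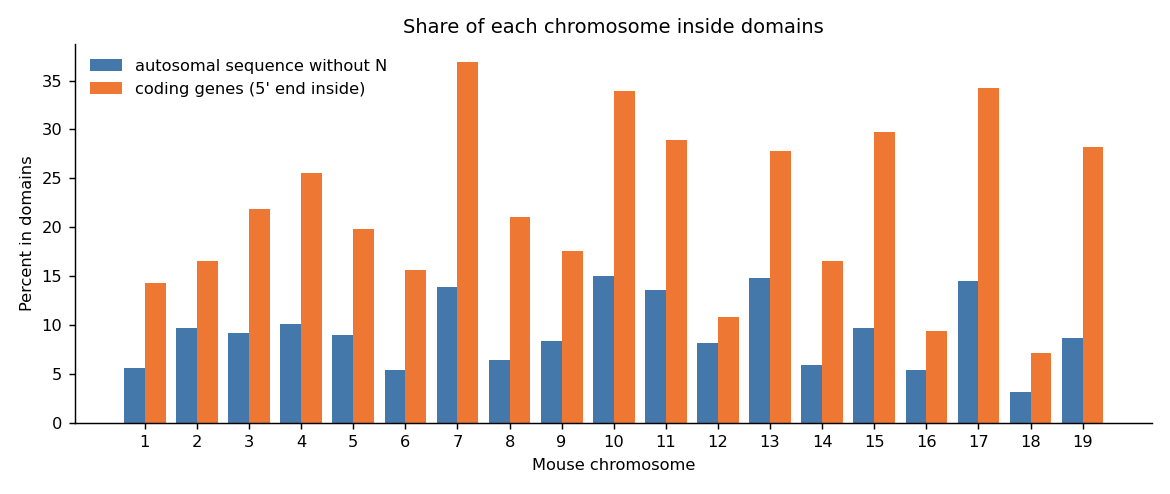
Percent of the sequence without N (blue) and of the coding genes (orange) of each mouse autosome inside domains. The gene share is above the sequence share on every chromosome, from 7.16% against 3.2% on chromosome 18 to 36.9% against 13.9% on chromosome 7.

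Neighbouring domains on a chromosome were mostly far apart. The 266 gaps had a median of 3.717 Mb, and 67 exceeded 10 Mb, the longest being 51.88 Mb. By contrast, 25 gaps were under 500 kb. The smallest, 71.93 kb, separated the narrowest domain (chr6:47538001-47628000) from the domain of 140.074 kb (chr6:47699927-47840000). The first held the start of Ezh2, the histone methyltransferase of Polycomb repressive complex 2, as its only coding gene. It had 844.4 G-quadruplex motifs per Mb, the highest density of any domain, and its neighbour 514. The second held 4 coding gene starts, 3 of them zinc finger (Zfp) genes.

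Domains were rich in genes. A gene was counted in a domain if its annotated 5′ end lay inside. By this rule 4935 of 21418 autosomal coding genes lay in domains, which sets the background share for every gene list below at 23.0%. For all 34653 annotated autosomal genes the share was 20.3% (7045 genes). Domains had 22.26 coding gene starts per Mb, the 500 kb on each side of them 11.72 and the remaining autosomes 7.589. The ratio of domains to the remaining autosomes was 2.933, and 3.167 when olfactory and vomeronasal receptor genes were left out. No test was made of this difference, because the list holds no values per replicate.

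Gene content differed widely among domains. The median domain held 8 coding gene starts, with quartiles of 4 and 19 and a range from 0 to 212. In density, the quartiles were 7.905 and 28.95 per Mb and the median 15.15 per Mb. The 20 domains with 50 or more coding genes held 1758 of the 4935, whereas 59 domains held 1 to 3. The rank correlation of width with coding genes per Mb over the 285 domains was 0.13, as a description. The median density was 17.32 per Mb in the 8 domains under 250 kb, 13.64 from 250 to under 500 kb, 13.93 from 500 kb to under 1 Mb and 25.63 at 1 Mb or more. Pooled density was 16.94 per Mb under 250 kb, 18.7 from 250 to under 500 kb, 20.17 from 500 kb to under 1 Mb and 25.68 at 1 Mb or more.

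The genes in domains were short. Coding genes that started in a domain spanned a median of 10.95 kb, against 18.23 kb for those that started outside. Of 188 autosomal coding genes longer than 500 kb, 4 started in a domain and 0 lay wholly inside one. The longest coding gene wholly inside was Cacna1d, a pore-forming subunit of a voltage-gated calcium channel, at 451.2 kb (chr14:30853135-31304342, minus strand). Of the 570 edges, 284 (49.82%) fell within the span of a coding gene, and such spans took 39.52% of autosomal sequence. Among noncoding types, 25.1% of lincRNA genes started in a domain, 16.8% of miRNA genes, 13.2% of pseudogenes and 11.5% of snoRNA genes.

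GC content was also high. The median domain had 45.44% GC, with quartiles of 43.48 and 47.89% and a range from 39.11 to 52.57%. In 248 of 285 domains it was above the autosomal mean of 41.93%. Pooled over all sequence, GC was 45.98% in domains, 43.43% in the 500 kb flanks and 41.52% on the remaining autosomes. CG dinucleotides followed the same order at 12.23, 9.503 and 8.127 per kb, and so did G-quadruplex motifs at 307.2, 246.6 and 232.9 per Mb. Over the domains, GC had a rank correlation of 0.54 with coding genes per Mb and of 0.80 with G-quadruplex motifs per Mb. These are descriptions, since the measures share base composition. By width, median GC was 45.23% in the 8 domains under 250 kb, 44.88% from 250 to under 500 kb, 45.76% from 500 kb to under 1 Mb and 47.19% at 1 Mb or more.

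Gene number and GC content were then set side by side in 4800 windows of 500 kb. Among windows without a coding gene start, 1.94% of the sequence lay in domains, against 54.0% among the 116 windows with more than 20. By GC, the share ran from 0.241% below 38% GC to 49.7% at 50% GC or more. Gene number was then followed with GC held in a narrow range. At 46 to 50% GC, the share was 7.32% in windows without a gene start, 18.9% with 3 to 5, and 61.4% with more than 20. At 38 to 42% GC it was 2.16, 4.2 and 12.7%, the last over 11 windows only, and at 42 to 46% GC 7.3, 11.6 and 38.4%. In none of these GC ranges did the share rise at each step. From 3 to 5 to 6 to 10 gene starts it went from 18.9 to 18.7% at 46 to 50% GC and from 11.6 to 10.1% at 42 to 46%, and at 38 to 42% it was 16.9% with 11 to 20, above the 12.7% with more.

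**Figure D3:**
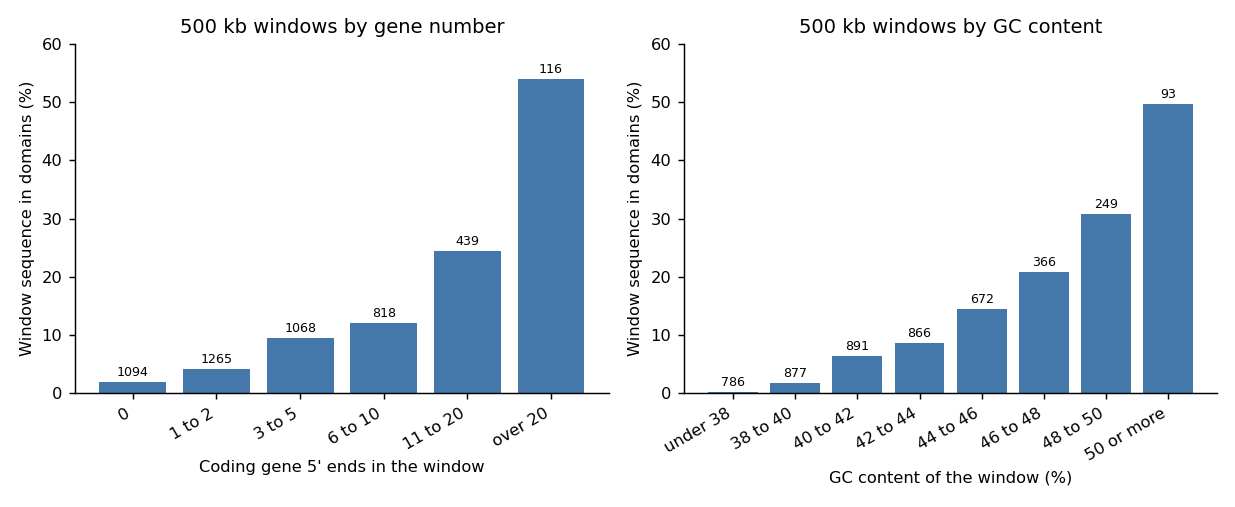
Percent of the sequence of 500 kb windows that lay in domains, with windows classed by coding gene 5′ ends (left) and by GC content in percent (right). The number over each bar is the number of windows, and the share in domains rises over every class, to 54.0% with more than 20 genes and 49.7% at 50% GC or more.

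Windows with at least 50% of their sequence in domains were compared with windows that had none, at like GC. At 40 to 42% GC, the median G-quadruplex density was 210 per Mb in the former and 212 in the latter. At 48 to 50% GC, it was 385 (quartiles 338 and 414) and 340.5 (294 and 384.5). Motif density was therefore close at low GC, and higher in the domain windows at high GC, where the quartile ranges overlapped. The median number of coding gene starts per window was 5 against 2 at 40 to 42% GC, 5 against 5 at 44 to 46%, and 16.5 against 8 at 48 to 50%.

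Composition changed at the edges. In the first 50 kb outside the 569 edges that had reference sequence beyond them, there were 9.604 coding gene starts per Mb, and in the first 50 kb inside 20.33. GC content went from 43.47 to 45.05% over the same step, and G-quadruplex motifs from 243.3 to 279.1 per Mb. Farther out, gene density stayed between 11.03 and 14.3 per Mb up to 500 kb, and GC between 43.35 and 43.62%. Farther in, GC reached 46.62% at 350 to 400 kb, but only 150 edges belonged to domains wide enough to contribute there. Peaks were sparse beside domains, at 4.551 per Mb in the first 50 kb and between 8.51 and 10.69 per Mb beyond. Within domains there were 0 peaks, because the study defined peaks as those that overlap no domain. The median distance from an edge to the nearest peak beyond it was 119.4 kb.

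**Figure D4:**
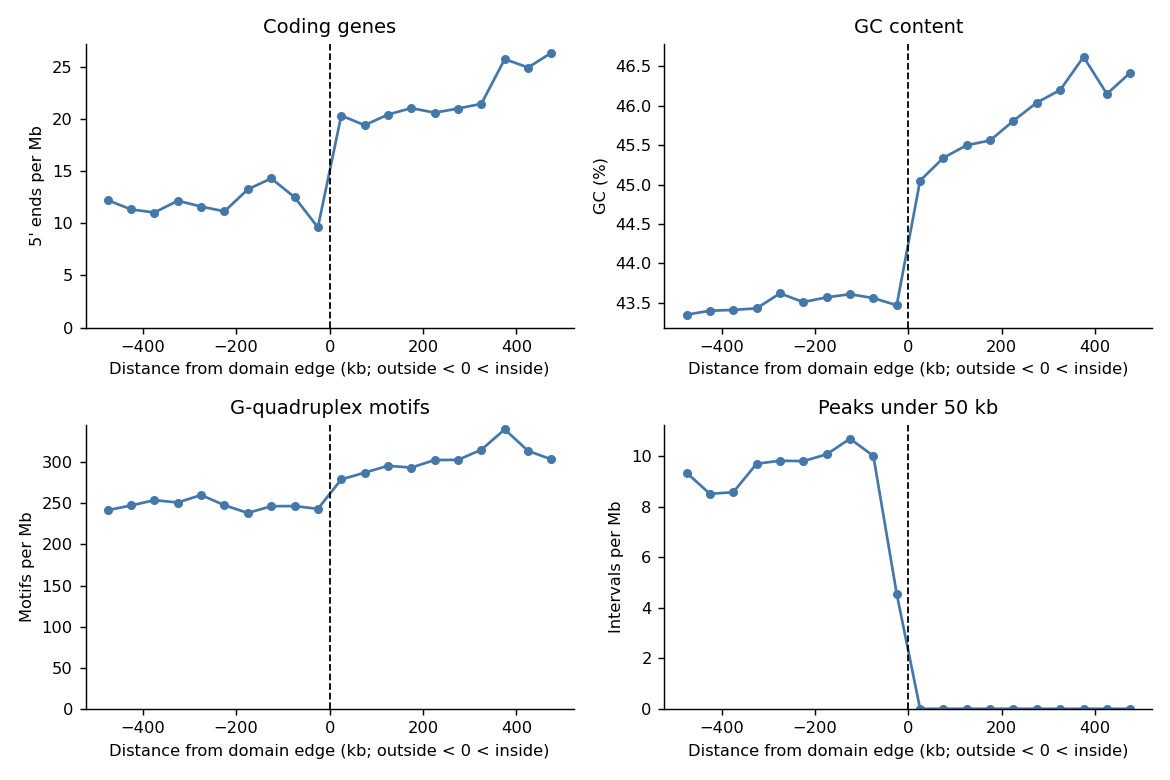
Coding gene 5′ ends per Mb, GC content in percent, G-quadruplex motifs per Mb and peaks per Mb in 50 kb bins by distance from a domain edge in kb, negative outside and positive inside (the GC axis does not start at 0). Genes step from 9.604 to 20.33 per Mb and GC from 43.47 to 45.05% across the edge, and peaks fall to 4.551 per Mb in the last bin before it. Bins deeper inside hold only the wider domains.

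The widest domain lay on chromosome 17 (chr17:31626001-36468000). It held 212 coding genes at 47.0% GC, from Wdr4 to H2-M10.1, and took in the major histocompatibility complex. Both class I genes such as H2-K1 and H2-D1, which present peptides on most cells, and class II genes such as H2-Aa, H2-Ab1 and H2-Eb1, which B cells use to present antigen to helper T cells, started inside. So did Tnf, Psmb8 and Psmb9, the last 2 being subunits of the immunoproteasome. Of 35 autosomal genes listed here by an H2- symbol, 25 (71.4%) lay in this domain and none in another. Of the 10 outside domains, 2 had a peak within 1 kb of the 5′ end, beside 42% of all coding gene symbols outside domains. That share is the background for the peak counts of gene lists below.

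The other domains among the 5 widest differed in gene density. The domain chr2:165600001-170406000 (4806 kb) held 43 coding genes, or 8.947 per Mb, although its GC content was 48.69%. Among its genes were Cebpb and Nfatc2, transcription factors of inflammatory and lymphocyte responses. The domain chr11:114280001-118160000 (3880 kb, 50.14% GC) held 109 coding genes, among them the Cd300 family of immune receptors, Grb2, Socs3 and Birc5. The domain chr4:132280001-135880000 (3600 kb) held 91, with Rpa2, Rpl11 and Il22ra1, and chr8:72140001-74900000 (2760 kb) held 114, with 9 Zfp genes, Il12rb1 and Klf2, a factor of lymphocyte quiescence.

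The 5 densest domains were between 344 and 774 kb wide. The domain chr14:56080001-56540000 held 35 coding genes in 460 kb (76.09 per Mb), among them Irf9, Psme1 and Psme2, Ripk3 and Nfatc4. The domain chr2:24940001-25596000 held 49 (74.7 per Mb), among them Traf2, Grin1 and 7 lipocalin genes. The domain chr19:3900001-4340000 held 32 (72.73 per Mb), with Ppp1ca, Ndufs8 and Ndufv1. The domain chr3:88956001-89300000 held 25 (72.67 per Mb), with Muc1, Trim46 and Slc50a1, and chr7:147996001-148770000 held 49 (63.31 per Mb), with 5 Ifitm genes for interferon-induced membrane proteins, Irf7 and Hras1.

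In 4 domains no coding gene started. The domain chr5:108060001-108220000 met the spans of Rpap2 and Evi5, which start outside, and held 4 annotated noncoding starts. Among them was a record of Gfi1, a transcriptional repressor of blood cells, that the annotation types as a processed transcript. The domain chr15:61960001-62340000 held the start of a pseudogene and part of Pvt1, the lincRNA gene beside Myc, whose 5′ end lay outside, while Myc itself had a peak and no domain. The domain chr12:22700001-23328000 held 2 noncoding starts, and chr19:14060001-14520000 met 0 annotated genes, at 39.67% GC.

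The extremes of GC content were unlike in gene content. The domain highest in GC was chr8:122562001-123440000 (52.57%), with 9 coding genes that included Irf8, a transcription factor of B and myeloid cells, and Gins2, a subunit of the replicative helicase. Next came chr11:118820001-119286000 (51.84%, 12 coding genes) and chr10:78740001-81220000 (51.68%, 132 coding genes), which held Tcf3. The lowest was chr10:36630001-37820000 (39.11%), whose 3 coding genes were Hdac2, Marcks and 5930403N24Rik. The domain chr13:5580001-6000000 (39.3%) held Klf6 alone, and chr1:175240001-175980000 (39.31%) held 16, with Aim2 and other interferon-inducible sensors of cytosolic DNA such as Ifi204 and Mnda.

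Genes that define B cells were often in domains. Of 25 genes for B cell identity and the B cell receptor, 13 (52.0%) started in a domain, beside 23.1% of all 21281 coding gene symbols. Among them were Cd22, Cd37 and Ms4a1 (CD20), which are surface proteins, Cd79a and Syk of receptor signalling, and the transcription factors Tcf3, Foxo1, Pou2f2, Spib, Ikzf1, Ikzf3 and Bach2. Of the 12 outside, 9 had a peak within 1 kb of the 5′ end, beside 42% of all coding gene symbols outside domains. These 9 were Cd79b, Pax5, Pou2af1, Spi1, Blnk, Lyn, Cr2, Fcer2a and Cd40. Ebf1, Cd72 and Cd74 had neither. The list was drawn up with earlier results known and its members share domains, so no test was made.

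The number of coding genes in the domains of these genes differed widely, beside a median of 8 over all domains. Bach2 (chr4:32325779-32673083) lay wholly within a domain of 506 kb with 4 coding genes (chr4:32200001-32706000). Ikzf1 lay in 360 kb with 3 (chr11:11394001-11754000), and Foxo1 in 1508 kb with 8 (chr3:51340001-52848000). Syk, a kinase of the B cell receptor, lay in 2420 kb with 14 (chr13:50800001-53220000). On the other hand, Spib and Cd37 lay in the same 1800 kb with 108 coding genes (chr7:51426001-53226000), and Cd79a and Pou2f2 in the same 1836 kb with 72 (chr7:24858001-26694000). Ms4a1 lay in a 960 kb domain of chromosome 19 (chr19:10740001-11700000), where its own family was clustered. Of 17 genes with Ms before the first digit of their symbol, 16 were in that domain.

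Genes of B cell activation had a smaller share in domains than those of B cell identity. Of 25, 9 (36.0%) started in a domain, beside 23.1% of all coding gene symbols. Among the 9 were Bcl6, Irf4, Batf, Cd83, Relb, Pim1, Junb and Cd69. Irf4, a factor of plasma cell differentiation, lay in 324 kb with 3 coding genes (chr13:30618001-30942000), Uqcrfs1, Dusp22 and itself. Cd83 shared 1054 kb with Jarid2 only (chr13:43820001-44874000), and Bcl6, the repressor of the germinal centre, shared 560 kb with Lpp only (chr16:23980001-24540000). The edge of that domain cut through Bcl6 (chr16:23965138-23988938, minus strand), with the 5′ end inside. Of the 16 outside, 11 had a peak at the 5′ end, beside 42% of all coding gene symbols outside domains. The 11 were Prdm1, Myc, Cd86, Nfkb2, Rel, Stat6, Il4ra, Tlr4, Myd88, Mcl1 and Bcl2, whereas Xbp1, Nfkb1, Nfkbia, Bcl2l1 and Egr1 had neither.

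**Figure D5:**
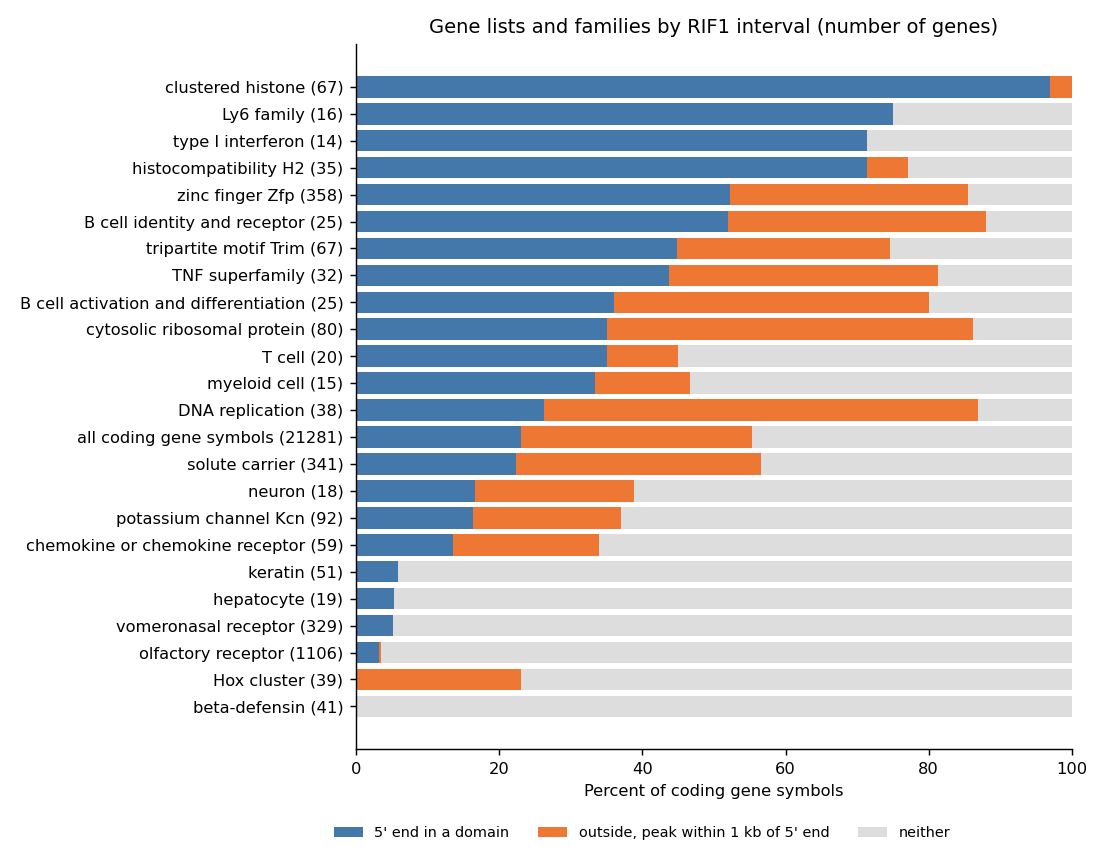
Percent of the coding genes of each list or family, with the number of genes in brackets, whose 5′ end lay in a domain (blue), lay outside with a peak within 1 kb (orange) or had neither (grey). Of all coding gene symbols 23.1% were in domains, against 52.0% of the B cell identity list, 97.0% of clustered histone genes and 3.25% of olfactory receptors.

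The immunoglobulin heavy chain locus lay partly in domains. The domain chr12:113742001-114980000 (1238 kb, 48.77% GC) held the constant genes Ighm and Ighg1, which activated B cells exchange in the presence of IL-4, together with Ighg2c and a record named Ighg. All 5 constant, 4 joining and 21 diversity segments annotated on chromosome 12 started there. Of 112 variable segments on that chromosome, 51 started in this domain or in chr12:116300001-117420000, a domain of 39.61% GC with 3 coding genes. The annotation gives the same types to segments on other chromosomes and has no separate type for T cell receptor segments. The type alone therefore does not tell antibody from T cell receptor segments there, and the counts are given by chromosome only. All 3 variable segments on chromosome 16 started in a domain. On chromosome 14, 18 of 61 joining segments and the 1 constant segment did. On chromosome 6, 0 of 124 variable, 19 joining, 2 diversity and 3 constant segments did, and on chromosome 14, 0 of 108 variable segments. Constant genes can share reads with near-identical copies, and only uniquely aligned reads were used, so the extent of binding there is uncertain.

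Lists for other cell types were also represented, beside 23.1% of all coding gene symbols in domains. Of 20 T cell genes, 7 (35.0%) started in a domain, among them Cd4, Lck, Lat, Tcf7, Cd5 and Cd6. Of the 13 outside, 2 had a peak at the 5′ end (Gata3 and Bcl11b), against 9 of 12 for B cell identity. Of all coding gene symbols outside domains, 42% had one. Of 15 myeloid genes, 5 (33.3%) were in domains, namely Itgam, Elane, Cd68, Fcgr1 and Emr1. Several of these lay in gene-dense domains. Lat and Itgam shared the domain chr7:133340001-135400000, which held 104 coding genes, and Elane shared with Tcf3 a domain with 132. Of 18 neuronal genes, Slc17a7, Grin1 and Eno2 were in domains (16.7%), and of 19 hepatocyte genes only Pck1 (5.26%), with a peak at 0 of the other 18. A share over a list does not separate the gene from its neighbours in the domain.

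Genes of DNA replication were in domains about as often as coding genes in general, with 10 of 38 (26.3%). These were Mcm2 and Mcm7 of the helicase, Cdc6 and Gmnn (geminin) of origin licensing, Gins1 and Gins2, Recql4 of origin firing, Pold1 of a replicative polymerase, and Rpa1 and Rpa2 of the single-strand binding complex. Of the 28 outside, 23 had a peak at the 5′ end, beside 42% of all coding gene symbols outside domains. Rif1 itself had a peak and no domain. Among the catalytic subunits of protein phosphatase 1, which RIF1 binds, Ppp1ca lay in a domain of 440 kb with 32 coding genes and Ppp1cc in one of 410 kb with 13 (chr5:122490001-122900000), while Ppp1cb had neither a domain nor a peak.

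Nearly all clustered histone genes were in domains. Of 67, 65 (97.0%) started in 5 domains, and the other 2, Hist3h2a and Hist3h2ba, had a peak at the 5′ end. The large cluster on chromosome 13 was divided between chr13:21222001-22160000 (23 histone genes, 41.91% GC) and chr13:23292001-25160000 (31 histone genes, 43.25% GC). A further 9 lay in chr3:95620001-96540000. These genes are transcribed in S phase to package new DNA. In the 250 bases before the 5′ end, 55 of the 65 (84.6%) held CCAAT on either strand, 32 (49.2%) held TATAAA and 14 (21.5%) held ATTTGCAT, the octamer motif. Of all 21413 autosomal coding promoters without N, 34.7, 12.4 and 1.63% held them. Among 17 H2B genes in domains, 17 held CCAAT, 9 TATAAA and 8 ATTTGCAT. The Hist1h2bc promoter printed above was chosen from those with all 3 motifs. The motifs do not contain each other, and a match describes letters only.

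Zinc finger genes were the most numerous in domains of the families listed here. Of 358 Zfp genes, which encode DNA-binding proteins many of which repress transposable elements, 187 (52.2%) started in 58 domains. In 10 domains 5 or more gene records with this symbol lay together. The largest such group, 23 genes, lay in chr13:65300001-68040000, a domain of only 40.65% GC with 53 coding genes, and groups of 14 lay in chr7:24858001-26694000, chr7:30540001-32022000 and the histocompatibility domain of chromosome 17 at 48.78, 48.01 and 47.0% GC. The 10 domains had a median GC content of 48.03%, against 45.35% in the other 275. Of the Zfp genes outside, 69.6% had a peak at the 5′ end, beside 42% of all coding gene symbols outside domains. Promoters of Zfp genes in domains were CpG-rich (CpG ratio of 0.6 or more) in 37.6% of cases, and those outside in 52.6%. Copies of such genes resemble each other, and reads that align to several copies were left out of the alignments used.

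Some immune gene families had groups of neighbouring members in a domain. Of 16 Ly6 genes, which encode small surface proteins of blood cells, 12 were in domains, with 6 in chr15:74480001-74900000 and 6 in the chromosome 17 domain of the histocompatibility genes. Of 14 type I interferon genes, 10 lay in chr4:88280001-88960000, which also held the cell cycle inhibitors Cdkn2a and Cdkn2b. Of 67 Trim genes, 30 (44.8%) started in 17 domains. A group of 10, among them Trim5, Trim12a, Trim30a and Trim34a, shared chr7:111300001-111800000 with 10 olfactory receptor genes at 41.0% GC. Of 28 natural killer receptor genes, 7 were in domains, and 6 of these were Klrb1 genes beside Cd69 in chr6:128484001-129240000. In the TNF superfamily 14 of 32 genes (43.8%) were in domains, including Tnf, Tnfrsf1a, Tnfrsf1b and Tnfrsf4, and 12 of the other 18 had a peak. Of 80 interleukin and receptor genes 24 (30%) were in domains, including Il10, Il6, Il2ra and Il2rb. Of 59 chemokine and receptor genes 8 (13.6%) were, below the 23.1% of all coding gene symbols. Among the 8 were Ccr7, Cxcr4 and Cxcr5, which guide lymphocytes through lymphoid tissue. The other members lay outside, 12 with a peak at the 5′ end and 39 without.

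Further families were also represented, beside 23.1% of all coding gene symbols in domains. Cytosolic ribosomal protein genes had 28 of 80 (35.0%) in 24 domains, such as Rpl11, Rpl12, Rpl13a and Rpl18. The proteasome had 11 of 38 (28.9%) in 8 domains, such as Psmb3, Psmb5, Psmb6 and Psmb8, and nuclear genes of NADH dehydrogenase 10 of 34 (29.4%) in 8, such as Ndufa3, Ndufa7, Ndufa13 and Ndufb7. Most of their members outside had a peak at the 5′ end (78.8, 74.1 and 75%), beside 42% of all coding gene symbols outside domains. The 11 proteasome genes in domains included Psmb8 and Psmb9 of the immunoproteasome. Solute carrier genes had 76 of 341 (22.3%) in 51 domains, and cytochrome P450 genes 23 of 98 (23.5%) in 11, of which 8 lay in the histocompatibility domain. Potassium channel genes had 15 of 92 (16.3%), kallikrein genes 5 of 28 (17.9%, all in 1 domain) and serpin genes 9 of 59 (15.3%).

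Other families were all but absent. Domains held 36 of 1106 olfactory receptor genes (3.25%) and 17 of 329 vomeronasal receptor genes (5.17%), and outside domains 2 and 0 of them had a peak. Of the 36 olfactory receptor genes in domains, 21 lay in the Trim domain of chromosome 7 and the histone domain chr13:21222001-22160000. None of 35 bitter taste receptors, 41 beta-defensins or 39 Hox genes started in a domain, and 9 of the Hox genes, which pattern the body axis, had a peak. Keratin genes had 3 of 51 (Krt24, Krt80 and Krt222), keratin-associated proteins 1 of 46 and clustered protocadherins 1 of 24. Of all coding gene symbols outside domains, 42% had a peak at the 5′ end.

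Grouping genes by the letters that open their symbol gave 259 groups of 10 or more coding genes. After Hist and Ms, the largest shares in domains were Zscan (13 of 16), Ifna (8 of 11), Ly (15 of 21), RP (7 of 10), Irf (7 of 11), Ceacam (9 of 15), Cdkn (6 of 10) and H (32 of 54, which includes the H2 genes). The Irf group lay in 7 separate domains and took in Irf3, Irf4, Irf7, Irf8 and Irf9, the factors that transmit interferon and innate signals, with Irf2bp1 and Irf2bp2. The Cdkn group included the cell cycle inhibitors Cdkn1a, Cdkn1b, Cdkn2a, Cdkn2b and Cdkn2d. In 25 groups no gene started in a domain. Besides Defb (41 genes), the largest of these were Serpina (22), Ces, Mup, Pcdhb and Ugt (21 each) and Cep (20). Mup, Ces and Ugt encode urinary proteins and liver enzymes.

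Promoters in domains had a CG content close to that of promoters outside. The 250 bases before the 5′ end had a median CpG ratio of 0.538 in domains (4933 promoters) and 0.494 outside (16480), or 0.551 outside without the chemoreceptor genes. CpG-rich promoters made up 44.9% of those in domains and 45.9% of those outside without chemoreceptors. The contrast with peaks was larger. Outside domains, promoters with a peak were CpG-rich in 71.6% of 6895 cases and those without in 20.8% of 9585. The 22 promoters of the B cell lists in domains lay near the domain average, with 45.5% CpG-rich. Among those that overlap no annotated exon, the CpG ratio ran from Spib to Bach2, both printed above.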

How the data were processed

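RIF1 ChIP-seq was measured in 4 samples in 2 groups, per the labels. Per the labels and the study's methods, the authors trimmed reads with Trim Galore 0.6.4, aligned them to mm9 with Bowtie 1.0.0 keeping unique alignments, called narrow and broad peaks per replicate with MACS2 2.2.6 and domains with EDD, and merged them with bedtools 2.27.1, keeping what both Rif1FH replicates shared. The deposited list holds genome positions only (chromosome, start, end). The antibody label names anti-CD43 beads, whereas the protocol describes anti-HA precipitation, which was followed here. Depth is unknown, so no interval or floor from counts is given.

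Domains were taken by width. Genes came from GENCODE M1 on NCBIM37, whose lengths match mm9, and 3 list symbols were matched through RefSeq synonyms. Members and lists were chosen with earlier results of these data known. Named were the widest, densest, narrowest and gene-free domains, those extreme in GC, B cell and RIF1 list members (some genes are not reported here), at most 4 members in domains of every other list in genome order, and symbol groups highest or at 0. Members named beyond or out of that order, and other genes named for what a domain holds, were chosen after their values were seen. Uniquely aligned reads leave repeats unlisted. Counting was tested on simulated domains and genes. Python 3.11.15, numpy 2.4.6, pandas 2.3.3 and scipy 1.17.1 were used.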

Additional observations from a re-analysis of the deposited data

How the results depend on the processing

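Of 58 values recomputed under an alternative, 52 moved by less than 1.5 times or within the 95% interval used for a share or a median. The share of coding genes in domains was 23.04%, and became 22.22% for genes wholly inside a domain, 21.89% with 20 kb trimmed from each end, 22.05% without the widest domain and 24.43% without olfactory and vomeronasal receptor genes, an alternative chosen after seeing the data. The ratio of coding gene density, 2.933 against the remaining autosomes, was 1.899 against the 500 kb flanks. The GC content of domains was 45.98% pooled over their sequence in place of a median of 45.44%. Counting genes by an overlap of 1 bp changed 3 of 35 list or family shares, each within its interval.

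The intervals cover counting error only, and genes in 1 domain are not independent. No paired analysis was possible because no value in the table belongs to a sample, and no replicate was left out for that reason. The strength of binding, the background in Rif1WT cells and the effect of depth on domain edges were not tested.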
